A study of Mus musculus with 6 samples.

Results

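The ADAMTS metalloproteinases are secreted zinc enzymes that cut proteins of the extracellular matrix, the protein and proteoglycan scaffold around cells. The 10 genes described here are Adamts1, Adamts2, Adamts4, Adamts5, Adamts6, Adamts7, Adamts9, Adamts10, Adamts12 and Adamts15. They were chosen by gene symbol, with earlier results of these arrays known, and a gene with several probe sets would have been represented by its brightest. Of the 10, 9 were measured among 19505 genes tested, each by a single probe set, so brightness decided nothing. Adamts2 has no named probe set in the annotation used and was not analysed here. No filter on low values was applied.

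The samples were cultured mouse fibrosarcoma cells (a tumor of mesenchymal, fibroblast-like origin) from the C57BL/6 strain, and they express Rras2(Q72L), a mutant of a small GTPase related to RAS. Every array label, in both groups, carries the same name, FS2. One group, shRras2, had been transduced to express the Rras2-directed hairpin RNA sh#89, which lowers Rras2 transcripts (arrays numbered 4 to 6 in the labels), and the other, pLKO, with the control vector (arrays 1 to 3). Each group had 3 arrays. Both groups carry Rras2 Q72L, a single shRNA was used, the age of the source animals was not given, and neither the number of clones nor separate cultures are described, so the p-values measure the spread between these arrays, which may be technical. A batch running with the array numbers and the group cannot be told apart.

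An ADAMTS enzyme is made as an inactive precursor. Furin-type proprotein convertases remove its prodomain, and its thrombospondin type 1 repeats, which are modified by O-linked fucose, help it bind matrix. The family falls into groups by substrate: several members cleave the large proteoglycans aggrecan and versican, others trim the amino-terminal propeptide of fibrillar procollagens, and others act on or bind cartilage oligomeric matrix protein (COMP) or fibrillin microfibrils. In mouse, versican processing by Adamts5 and Adamts15 has been linked to the fusion of myoblasts.

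Promoters, the DNA in front of genes, were available for only some of the members that rose, and not for Adamts4, Adamts5 or Adamts6. The RefSeq promoter table held 4 of the 10 members, Adamts1, Adamts2, Adamts9 and Adamts12, all on build GRCm38.p6. The 250 bases before the annotated start are given for Adamts1 and Adamts9, whose signals rose in shRras2 cells, and for Adamts12, whose signal did not pass the test. Capitals mark a match to a searched motif, and each sequence runs 5′ to 3′ towards its gene. The Adamts1 window lies at chr16:85803114-85803363 on the minus strand, that of Adamts9 at chr6:92943535-92943784 on the minus strand, and that of Adamts12 at chr15:11064523-11064772 on the plus strand.
Adamts1: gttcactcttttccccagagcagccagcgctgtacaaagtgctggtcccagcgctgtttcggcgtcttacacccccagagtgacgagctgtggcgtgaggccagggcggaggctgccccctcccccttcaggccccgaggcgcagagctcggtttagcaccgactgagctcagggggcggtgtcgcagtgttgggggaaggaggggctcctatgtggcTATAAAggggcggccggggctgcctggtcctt
Adamts9: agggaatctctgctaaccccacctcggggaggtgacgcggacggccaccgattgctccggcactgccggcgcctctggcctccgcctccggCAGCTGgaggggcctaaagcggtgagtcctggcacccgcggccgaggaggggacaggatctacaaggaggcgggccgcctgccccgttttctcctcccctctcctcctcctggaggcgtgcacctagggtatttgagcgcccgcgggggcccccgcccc
Adamts12: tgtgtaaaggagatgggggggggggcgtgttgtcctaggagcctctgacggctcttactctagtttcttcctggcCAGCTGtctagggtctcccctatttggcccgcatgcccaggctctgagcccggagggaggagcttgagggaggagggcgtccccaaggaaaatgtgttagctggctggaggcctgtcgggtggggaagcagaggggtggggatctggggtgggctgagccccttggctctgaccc

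Both strands were searched for AP-1 (TGANTCA), ETS (CCGGAAG), FOXO (GTAAACA), E-box (CAGCTG) and TATA-box (TATAAA) letters, and no matches overlapped in these windows. The Adamts1 window held TATAAA from 32 to 27 bases before the start, a match present in 12.4% of the 32851 windows of that length in the table. The windows of Adamts9 and Adamts12 each held CAGCTG, present in 13% of windows, from 159 to 154 and from 175 to 170 bases before the start. That match thus stands in front of a gene that rose and in front of one that did not pass. AP-1, ETS and FOXO letters, which 6.75%, 6.91% and 3.17% of windows hold, were not in these 3 windows. The G and C content was 65.6% for Adamts1, 71.2% for Adamts9 and 63.2% for Adamts12, against a median of 52.4% over all windows.

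The deposited values are log2 signals from robust multi-array averaging (RMA), and 1 unit is a 2-fold step in signal. No detection calls accompany them, so 5222 negative-control probe sets served as a scale for dim signals. Their median was 5.01 and their 95th percentile 7.86, called the background line below. Across genes, which are no independent replicates, Pearson r ran from 0.994 to 0.997 between arrays of a group and from 0.988 to 0.993 between groups. Rras2 itself was 9.09, 9.69 and 9.21 in shRras2 cells and 10.67, 10.75 and 10.82 in pLKO cells, a difference of -1.41 ± 0.14 (SE; limma adjusted p = 0.00163; exact permutation p = 0.1, the smallest possible with 3 arrays against 3). The knockdown arrays kept 31.8%, 48.1% and 34.6% of the mean control signal, so the second of them, replicate 5, kept the most.

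The ADAMTS members that rose in shRras2 cells were Adamts5, Adamts4, Adamts1, Adamts9 and Adamts6. These were 5 of the 9 measured members (55.6%), against 2.99% of all 19505 genes called higher, by limma with an adjusted p under 0.05. The first 4 named were listed as proteoglycan-cleaving, a role assigned within the list only, and Adamts6 as linked to fibrillin microfibrils. Of the members 0 fell (0 with a difference below 0 at an unadjusted p under 0.05 in limma), and 2.22% of all genes were called lower (5.21% in either direction). The median log2 difference was 0.61 over the 9 members and -0.01 over all genes. Because the members were named with results known, these counts describe the list and test nothing about it. The groups did not overlap, with shRras2 higher, for 7 of the 9 members and for 11.6% of all genes, and with shRras2 lower for 0 members and 13.9% of all genes. In bulk RNA a change in the share of cells that express a gene and a change in RNA per cell cannot be told apart.

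**Figure D1:**
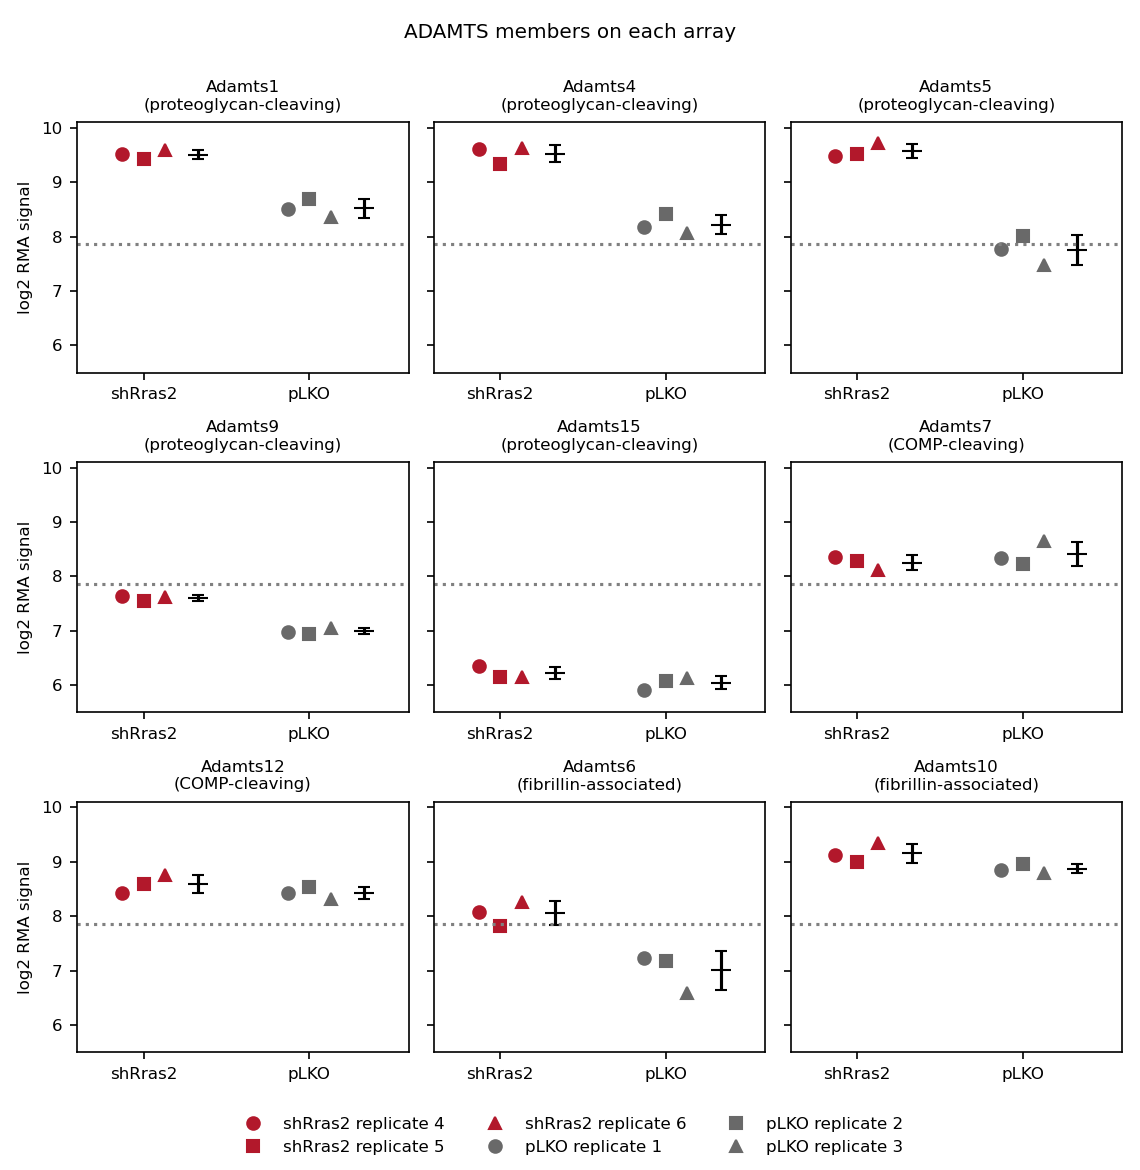
Log2 RMA signal of the 9 measured ADAMTS genes on each array, shRras2 left and pLKO right, with points for single arrays and a bar for the mean ± SD of 3 arrays; the dotted line is the 95th percentile of the negative controls (7.86). Adamts1, Adamts4, Adamts5, Adamts9 and Adamts6 show separate groups. Adamts15 and Adamts10 also do, by narrow margins, and Adamts7 and Adamts12 overlap.

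Adamts5 encodes the main aggrecan-cleaving enzyme of mouse cartilage and also cleaves versican. It read 9.48, 9.52 and 9.72 in shRras2 cells, against 7.78, 8.01 and 7.47 in pLKO cells. The lowest knockdown array lay well above the highest control. Its log2 difference was 1.82 ± 0.14 (SE; 95% interval 1.51 to 2.13; limma adjusted p = 0.000355), or 3.53-fold (95% interval 2.85 to 4.38), the 27th largest rise of all genes tested. The pLKO mean, 7.75 ± 0.27 (SD, n = 3), lay just under the background line, with 94.2% of negative controls dimmer, so the fold may be understated.

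The other enzyme commonly called an aggrecanase, Adamts4, cleaves aggrecan and versican too, and it also rose. Its signal was 9.61, 9.34 and 9.62 in shRras2 cells and 8.18, 8.41 and 8.07 in pLKO cells. All arrays were above the background line and the groups were more than 0.9 apart at their closest. The difference was 1.30 ± 0.12 (SE; limma adjusted p = 0.00092), a fold of 2.46 (95% interval 2.05 to 2.96).

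Adamts1, which cleaves versican and aggrecan and has been studied in ovulation and vessel growth, was 9.51, 9.43 and 9.58 in shRras2 cells and 8.51, 8.70 and 8.35 in pLKO cells. This is a gap of 0.99 ± 0.10 (SE; limma adjusted p = 0.00168), close to a doubling of signal (1.98-fold, 95% interval 1.69 to 2.33). The knockdown arrays were tightly grouped, with an SD of 0.08.

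Adamts9, a versican-cleaving enzyme and the relative of GON-1 in Caenorhabditis elegans, stayed dim in both groups. It read 7.64, 7.55 and 7.61 in shRras2 cells and 6.98, 6.95 and 7.05 in pLKO cells, with every array under the background line. The spread was small enough for the rise of 0.61 ± 0.08 (SE; limma adjusted p = 0.00361) to pass. Its size, 1.53-fold (95% interval 1.35 to 1.72), may be understated at that brightness. Adamts15, the fifth proteoglycan-cleaving member, was dimmer still at 6.35, 6.16 and 6.16 in shRras2 cells and 5.91, 6.08 and 6.14 in pLKO cells. Its groups were separate by a narrow margin, the difference of 0.18 ± 0.10 (SE) did not pass (limma adjusted p = 0.355), and its 95% interval ran from -0.04 to 0.40.

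The sizes of the rises among the brighter proteoglycan-cleaving genes were unequal. Each array's own difference between a pair of genes was compared between groups, which removes what the whole array shares; a level of one probe set was not read against another's. Adamts5 minus Adamts1 was -0.03, 0.09 and 0.14 in shRras2 cells and -0.74, -0.68 and -0.88 in pLKO cells, a shift of 0.84 ± 0.08 (SE). The corresponding shift was 0.52 ± 0.11 for Adamts5 minus Adamts4 and 0.31 ± 0.06 for Adamts4 minus Adamts1. In all 3 pairs the groups did not overlap, and the exact two-sided permutation p was 0.1 for each (0.1 after Benjamini-Hochberg adjustment over the 3 pairs), the smallest this design allows. The first of these shifts is by construction the sum of the others, so the 3 pairs are not separate results. On these arrays the order of the rises in signal was thus Adamts5, Adamts4, Adamts1, though no pair can pass 0.05. Compression of dim signals may differ between probe sets, so the sizes of the rises are not strictly comparable.

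Adamts6 and Adamts10 are close relatives, and Adamts10 binds fibrillin-1. Adamts6 was 8.08, 7.82 and 8.25 in shRras2 cells and 7.23, 7.18 and 6.59 in pLKO cells. The control spread was wide (SD 0.35), chiefly through replicate 3. It rose by 1.05 ± 0.18 (SE; limma adjusted p = 0.0122), or 2.07-fold, and the pLKO mean lay under the background line. The call was lost without shRras2 replicate 4 or 6 (limma adjusted p up to 0.0574). Adamts10, above the line on all arrays, read 9.12, 9.00 and 9.35 in shRras2 cells and 8.85, 8.96 and 8.80 in pLKO cells. Its groups barely failed to touch, and the difference of 0.28 ± 0.10 (SE) did not pass (limma adjusted p = 0.175).

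Adamts7 and Adamts12 resemble each other in domain structure and both bind and degrade COMP. Neither passed. Adamts7 was 8.36, 8.29 and 8.11 in shRras2 cells and 8.34, 8.23 and 8.65 in pLKO cells, with a difference of -0.15 ± 0.12 (SE; 95% interval -0.43 to 0.12; limma adjusted p = 0.555). Adamts12 was 8.42, 8.60 and 8.75 in shRras2 cells and 8.43, 8.54 and 8.32 in pLKO cells, with a difference of 0.16 ± 0.10 (SE; 95% interval -0.08 to 0.40; limma adjusted p = 0.469). The groups overlapped for both, and all their arrays were above the background line. The upper ends of both intervals lie below the lower ends of the intervals of Adamts5, Adamts4 and Adamts1.

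The remaining ADAMTS genes were near background. Of the 9 outside the members, 0 rose in limma (0 at an unadjusted p under 0.05), 1 fell and 8 did not pass (median difference -0.03). For these and the ADAMTS-like genes below, the shares over all genes were 2.99% called higher and 2.22% called lower. Few calls in lists this short thus do not set them apart from other genes. Of the 9, only Adamts14 had a group mean above the background line (7.91 ± 0.23 in shRras2 cells and 8.04 ± 0.07 in pLKO cells, SD, n = 3 each; limma adjusted p = 0.634). Adamts14 and Adamts3 are the relatives of Adamts2 that also remove procollagen propeptides, so the procollagen-cleaving group was represented by these alone. The other genes outside the members were not sorted by substrate, so proteoglycan-cleaving enzymes may be among them. Adamts3 was the gene that fell, at 4.04, 4.14 and 4.15 in shRras2 cells and 4.44, 4.53 and 4.40 in pLKO cells (-0.34 ± 0.08, SE; limma adjusted p = 0.043). Both groups lay below the median of the negative controls, and leaving out any single array ended the call (limma adjusted p 0.063 to 0.144). Of the 7 ADAMTS-like genes, which lack the protease domain, Adamtsl3 rose and the other 6 did not pass. It was 11.14, 11.18 and 11.01 in shRras2 cells and 10.55, 10.64 and 10.65 in pLKO cells (0.50 ± 0.08, SE; limma adjusted p = 0.0114). Without pLKO replicate 1 or shRras2 replicate 4 it did not pass (limma adjusted p up to 0.0547).

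**Figure D2:**
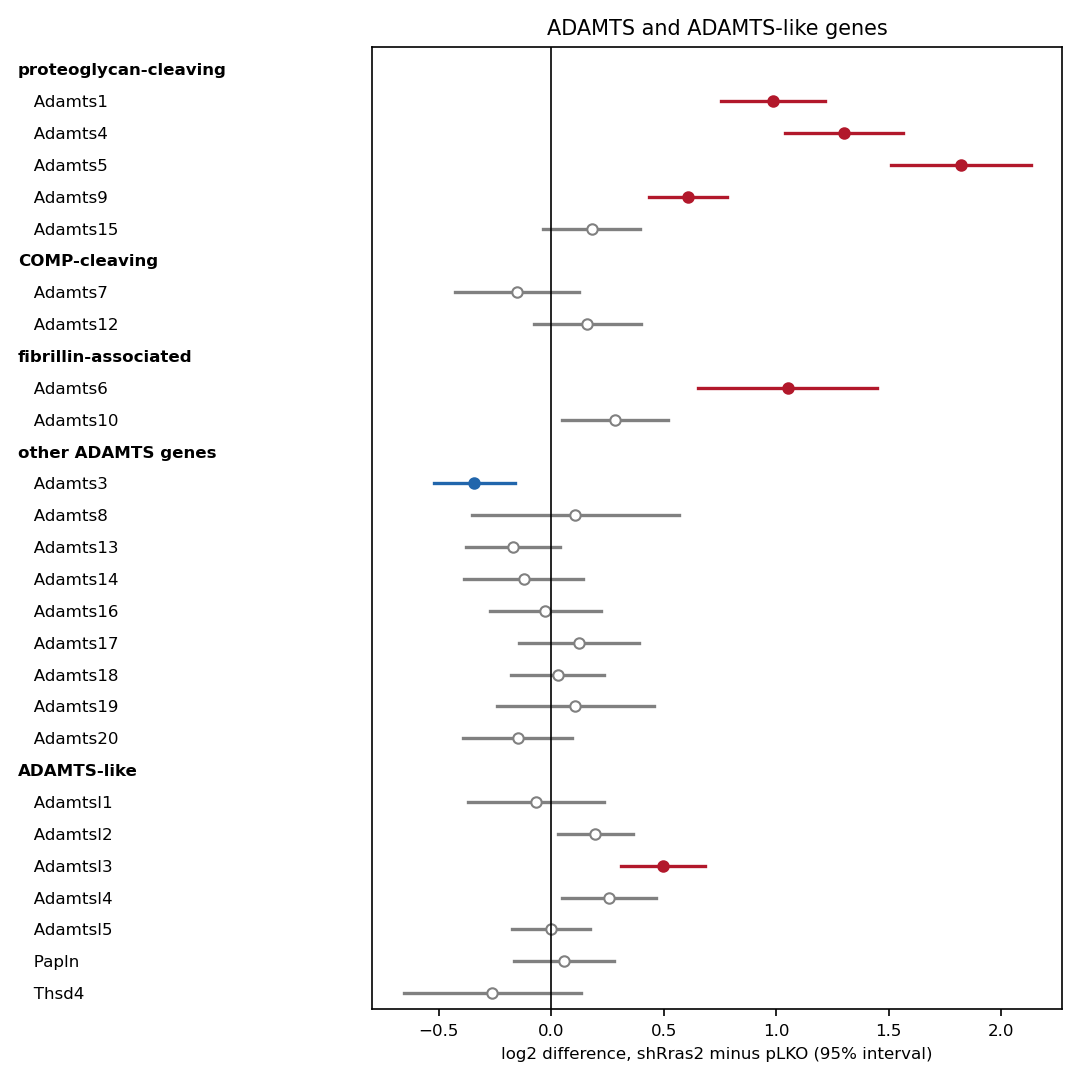
Log2 difference in signal, shRras2 minus pLKO, with its 95% interval from limma for 9 measured members, 9 other ADAMTS genes and 7 ADAMTS-like genes; filled red marks a rise and filled blue a fall with adjusted p under 0.05. The 4 filled proteoglycan-cleaving genes and Adamts6 lie at 0.61 to 1.82, and the ADAMTS genes outside the members lie between -0.34 (Adamts3) and 0.12.

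Adamts1 and Adamts5 are neighbours among the protein-coding genes of the RefSeq table. The genes on either side, chosen here after the values of the pair were seen, were Cyyr1 next to Adamts1 and N6amt1 next to Adamts5. Cyyr1 averaged 6.60 ± 0.18 in shRras2 cells and 6.61 ± 0.08 in pLKO cells, and N6amt1 averaged 8.17 ± 0.09 in shRras2 cells and 8.28 ± 0.14 in pLKO cells (SD, n = 3 each). Neither passed (limma adjusted p = 0.981 and 0.597). One gene further out, App next to Cyyr1 differed by 0.30 ± 0.07 (SE; limma adjusted p = 0.0544) and Ltn1 next to N6amt1 by -0.07 ± 0.11 (SE; limma adjusted p = 0.78), and neither passed. The rise passed at both ADAMTS genes and at none of these 4 neighbours. Over all genes 2.99% were called higher and 2.22% lower. The absence of a call at 4 genes is therefore common and does not mark the rise as confined to the pair. App, which was higher in shRras2 cells, missed the threshold narrowly. Cyyr1 lay under the background line in both groups, where a change could go unseen.

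Within the groups, arrays did not rank alike for all members. Among pLKO arrays replicate 2 was the highest and replicate 3 the lowest for Adamts1, Adamts4 and Adamts5, while replicate 3 was the highest of the pLKO arrays for Adamts9, Adamts15 and Adamts7. Among shRras2 arrays, replicate 5, which kept the most Rras2, was the lowest of the knockdown arrays for Adamts1, Adamts4, Adamts9, Adamts6 and Adamts10. It exceeded the control mean by 0.90 for Adamts1, against 0.99 on replicate 4 and 1.06 on replicate 6. For Adamts6 that excess was 0.82 on replicate 5, against 1.08 and 1.25 on replicates 4 and 6. Adamts5 was different, with an excess of 1.77 on replicate 5 between the 1.73 of replicate 4 and the 1.97 of replicate 6. Replicate 5 was not the lowest knockdown array for Adamts7 or Adamts12 either, and for Adamts15 it was nearly tied with the lowest, replicate 6.

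The genes with the profile most like Adamts5 across the 6 arrays were Epha3, an ephrin receptor (Pearson r = 0.998), Adamts1 itself (0.998) and Pik3ip1, an inhibitor of PI3-kinase (0.997). For Adamts4 they were Lox, the collagen cross-linking lysyl oxidase (0.999), Igfbp2, an insulin-like growth factor binding protein (0.999), and Itm2b, a membrane protein gene (0.998). The search took in 772 other genes past the threshold with a group mean above the background line. With 2 groups that stand apart, such coefficients mostly record the shared step between groups, so they are descriptions without a p. Lox was 12.49, 12.33 and 12.50 in shRras2 cells and 11.57, 11.71 and 11.44 in pLKO cells, and so shares with Adamts4 the low replicate 5 among knockdown arrays and the low replicate 3 among controls.

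Matrix proteins that ADAMTS enzymes are reported to cut were mixed. The large proteoglycan versican (Vcan), a shared target of the proteoglycan-cleaving members, read 10.36, 10.50 and 10.36 in shRras2 cells and 10.55, 10.44 and 10.52 in pLKO cells and did not pass (-0.10 ± 0.08, SE; limma adjusted p = 0.58). Aggrecan (Acan) was below the background line on every array, with means of 7.22 ± 0.11 in shRras2 cells and 7.17 ± 0.10 in pLKO cells (SD, n = 3 each). Of 8 listed proteoglycans 2 rose, 0 fell and 6 did not pass (median 0.03). For this list and those below, the shares over all genes were 2.99% called higher and 2.22% called lower. Those that rose were the small leucine-rich proteoglycans Fmod and Dcn, both collagen-binding. Fmod was 9.33, 8.01 and 8.97 in shRras2 cells and 5.89, 6.83 and 5.96 in pLKO cells (2.54 ± 0.34, SE; limma adjusted p = 0.00493), with replicate 5 the lowest knockdown array and all controls under the background line, so that the size is imprecise. Dcn was 7.57, 7.05 and 7.50 in shRras2 cells and 6.81, 6.59 and 6.43 in pLKO cells, under the background line throughout (0.76 ± 0.15, SE; limma adjusted p = 0.023), and it kept its call in 2 of the 6 fits without 1 array.

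Among 6 fibrillar collagen chains, the substrates of the procollagen-cleaving enzymes, 2 rose, 0 fell and 4 did not pass (median 0.29). They were Col3a1 (0.69 ± 0.15, SE; limma adjusted p = 0.0313) and Col5a1 (0.47 ± 0.10, SE; limma adjusted p = 0.0387), each past the threshold in 2 of the 6 fits without 1 array. Col1a1, the chief chain of type I collagen, differed by 0.24 ± 0.10 (SE) and did not pass (limma adjusted p = 0.248). Of 9 measured glycoproteins 2 rose, 0 fell and 7 did not pass (median -0.01). Postn, which encodes the matricellular protein periostin, was 11.20, 10.45 and 10.95 in shRras2 cells and 8.60, 9.60 and 8.32 in pLKO cells (2.02 ± 0.31, SE; limma adjusted p = 0.0087). Thbs1, which encodes thrombospondin-1, rose by 0.67 ± 0.08 (SE; limma adjusted p = 0.00272). Postn did not pass when limma used a mean-variance trend and robust settings (adjusted p = 0.0722), which also ended the call of Col3a1 (0.0557). Comp, the target of Adamts7 and Adamts12, was below the background line, at 5.93 ± 0.09 in shRras2 cells and 5.77 ± 0.10 in pLKO cells (SD, n = 3 each; limma adjusted p = 0.374). Fbn1 was not analysed here.

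A few of the genes that restrain or assist these enzymes changed, and most did not pass. Of 9 listed inhibitors, uptake receptors and cofactors 2 rose, 1 fell and 6 did not pass (median 0.00). Timp3, the tissue inhibitor most active against Adamts4 and Adamts5, was 10.59, 10.23 and 10.59 in shRras2 cells and 9.91, 9.96 and 9.90 in pLKO cells. All knockdown arrays were above all controls, with replicate 5 the closest to them, and the rise was 0.54 ± 0.11 (SE; limma adjusted p = 0.025). The call was kept in 1 of the 6 fits without 1 array, that without shRras2 replicate 5. Timp1 and Timp2 differed by 0.03 each and Timp4 by -0.10, none of them past the threshold (limma adjusted p 0.637 to 0.874).

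Fbln1 and Sdc4 changed in opposite directions. Fbln1 encodes fibulin-1, a cofactor of Adamts1 in aggrecan cleavage, and was 9.67, 9.60 and 9.58 in shRras2 cells and 9.00, 9.02 and 9.04 in pLKO cells (0.60 ± 0.07, SE; limma adjusted p = 0.00322). Sdc4 encodes the heparan sulfate proteoglycan syndecan-4, which is tied to Adamts5 activity in mouse cartilage, and was 10.40, 10.49 and 10.58 in shRras2 cells and 11.11, 11.13 and 11.09 in pLKO cells. It fell by 0.62 on the log2 scale (SE 0.08; limma adjusted p = 0.00407). Both calls held in all 6 fits without 1 array. Lrp1, the endocytic receptor that clears Adamts4 and Adamts5, differed by 0.00 ± 0.10 (SE; 95% interval -0.22 to 0.23). Of 5 processing genes 0 passed in either direction (limma; median -0.15), with 1, B3glct, at an unadjusted p under 0.05 (adjusted p = 0.0748). Furin, the convertase that removes ADAMTS prodomains, was 9.86, 9.78 and 9.70 in shRras2 cells and 9.95, 9.86 and 10.03 in pLKO cells (-0.17 ± 0.08, SE; limma adjusted p = 0.319).

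**Figure D3:**
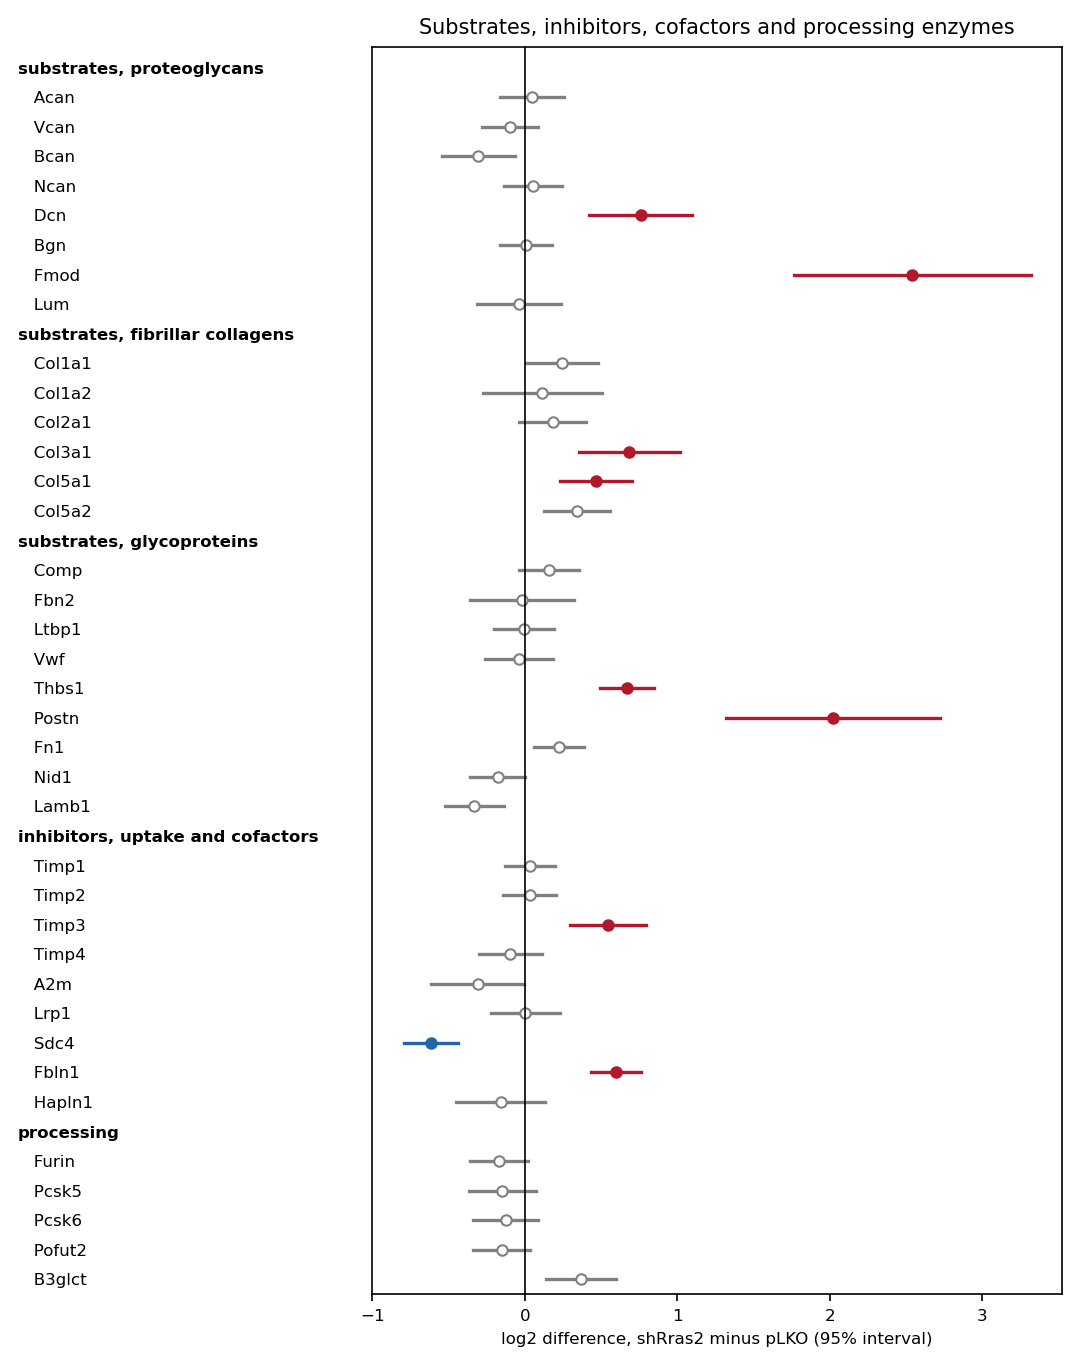
Log2 difference in signal, shRras2 minus pLKO, with its 95% interval from limma for matrix substrates, inhibitors, uptake receptors, cofactors and processing genes; filled red marks a rise and filled blue a fall with adjusted p under 0.05. Fmod (2.54) and Postn (2.02) lie farthest to the right, Timp3 and Fbln1 rose, and Sdc4 fell.

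Markers of other cell types were read on the same arrays. Fibroblast-like markers had a list mean of 9.98 to 10.18 in shRras2 cells and 9.84 to 9.90 in pLKO cells. Of the 9 measured, 6 had a group mean above the background line. The 3 that rose were Col3a1, Pdgfrb and Dcn, with Dcn under that line, and 2.99% of all genes were called higher. Of 10 skeletal muscle markers, some of them listed from earlier results of these arrays, 10 rose and 0 fell, and their mean level was 8.72 to 9.40 in shRras2 cells and 6.57 to 6.97 in pLKO cells. Both the muscle mean and the 5 members that rose were thus higher in shRras2 cells. The muscle mean was 9.40, 8.72 and 9.30 on shRras2 replicates 4, 5 and 6, and replicate 5 was also the lowest knockdown array for Adamts1, Adamts4, Adamts6 and Adamts9, but not for Adamts5. Among controls it was 6.57, 6.72 and 6.97 on pLKO replicates 1, 2 and 3, and replicate 3, the highest there, was the highest control for Adamts9 and the lowest for Adamts1, Adamts4, Adamts5 and Adamts6. The part of muscle transcripts in the ADAMTS differences was not tested. Of 8 cartilage markers 0 passed in limma (0 at an unadjusted p under 0.05), with a list mean of 6.98 to 7.05 in shRras2 cells and 6.92 to 7.00 in pLKO cells. The measured immune, endothelial and epithelial markers (4, 5 and 5 genes) had both group means below the background line, and 0 of them passed in limma (0, 1 and 0 at an unadjusted p under 0.05).

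Under the alternative settings and with 1 array left out at a time, Adamts1, Adamts4 and Adamts5 passed in 14 of 14 fits each. Their log2 differences ran from 0.90 to 1.07, from 1.23 to 1.40 and from 1.68 to 1.95. Adamts9 passed in 13 of 13 fits, being too dim for one that kept brighter genes, and Adamts6 in 12 of 14. Averaging of probe sets could not change a member's values, because each measured member had a single probe set. The fit on brighter genes held Adamts5 and Adamts6 only through their shRras2 means, so it is no support for either. The members that did not pass, Adamts7, Adamts10, Adamts12 and Adamts15, passed in 0 of their fits.

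**Figure D4:**
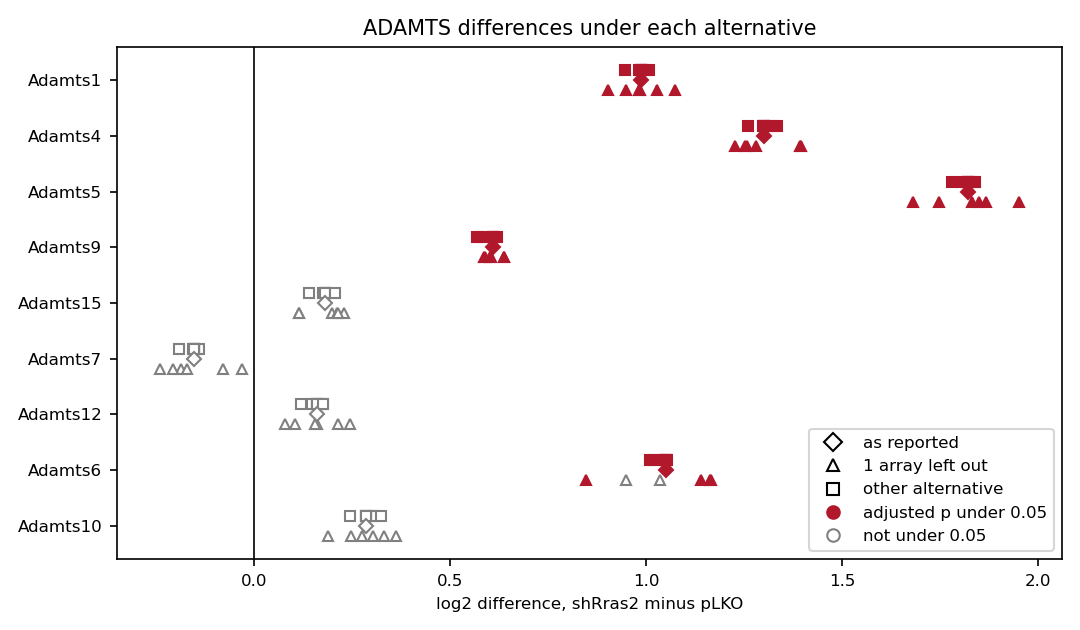
Log2 difference, shRras2 minus pLKO, of each measured ADAMTS gene as reported (diamond), with 1 array left out (triangles) and under other settings (squares); filled symbols have an adjusted p under 0.05. Adamts5, Adamts4, Adamts1 and Adamts9 stay filled throughout, and Adamts6 has 2 open triangles, at shRras2 replicates 4 and 6 left out.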

How the data were processed

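The deposited table holds log2 signals for 29129 probe sets on 6 Affymetrix arrays, made by the authors with RMA and R 3.6.3, as the submitters' processing notes record. Package version, filters and genome build: not given in the sources used here. RMA normalizes between arrays and compresses low signals. Platform annotation named 19572 probe sets with 1 gene each, and the brightest was kept for 55 genes with several, leaving 19505 genes. Differences (shRras2 minus pLKO) came from limma 3.58.1 in R 4.3.3 (lmFit, eBayes, no covariates, two-sided), with p-values adjusted by Benjamini-Hochberg across the 19505 genes and called under 0.05. Residual degrees of freedom were 4 and prior degrees 4.85. Precision is limited by the number of arrays (median SE 0.10). The method was tested on simulated data.

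The members and lists were chosen with earlier results of these data known. Genes named were all members, Rras2, up to 4 called members of each list with up to 2 in the other direction, Timp3, Vcan, Acan, Comp, Furin, and for Adamts4 and Adamts5 the 3 most correlated called genes; others were named after their values were seen. Alternatives were repeated quantile normalization, median centring, cyclic loess, 2 filters on dim genes, averaging of probe sets, eBayes with trend and robust settings, array weights, and leaving out each array. Promoters are from RefSeq, GRCm38.p6.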

Additional observations from a re-analysis of the deposited data

How the results depend on the processing

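The count of ADAMTS members past the threshold was 5 under each alternative except 3: it was 4 when genes were kept only with a group mean above the 95th percentile of the negative controls, which left Adamts9 and Adamts15 out, and 4 without shRras2 replicate 4 or 6, where Adamts6 was lost. The filter held Adamts5 and Adamts6 only through their shRras2 means. The range of the count without 1 array was 4 to 5. Over all genes the count of 1017 became 1695 with that filter, which tests 8480 genes, and 1908 with trend and robust settings, and ranged from 392 to 1136 without 1 array. Centring each array on its median gave 506 higher and 567 lower genes, against 584 and 433 as reported, and moved the median of all genes to -0.05. The other ADAMTS, ADAMTS-like, substrate, inhibitor, cofactor and processing lists, 53 measured genes together, had 11 calls. Over all genes 5.21% were called in either direction. Without 1 array these lists had 5 to 11 calls: 6 without pLKO replicate 1 or 3, 5 without shRras2 replicate 4 and 6 without shRras2 replicate 6. Rras2 stayed between -1.59 and -1.29 without 1 array. The within-array shifts ranged from 0.78 to 0.88 for Adamts5 minus Adamts1, 0.27 to 0.37 for Adamts4 minus Adamts1 and 0.45 to 0.61 for Adamts5 minus Adamts4. Among single genes, 299 values kept their direction and side of the threshold and 29 lost significance; the exception in sign, Acan without shRras2 replicate 5 (-0.01), was not past the threshold in either fit. The cause of these changes was not tested except where genes or arrays were removed. No paired analysis was possible because the groups share no replicate numbers. For signals under the negative controls' 95th percentile, those of Adamts9 and Adamts15 among them, the sizes of differences are uncertain and may be understated.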
